A study of Rattus norvegicus with 6 samples.

Results

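Enpp1, Slc28a2, Cyp2e1 and Napepld are 4 rat genes of nucleotide, lipid and xenobiotic metabolism that have 1 probe each on an array built mainly for piRNAs, the small RNAs that guide PIWI proteins in germ cells. They were taken by probe name (A_43_P12841 for Enpp1, A_44_P1024721 for Slc28a2 and A_44_P409232 for Cyp2e1) or, for Napepld (A_44_P451930), by the RefSeq accession in the scanner files. They are 4 of 38 genes that the 39886 probes apart from controls name through a RefSeq accession; nearly all other probes carry piRNA identifiers. The genes were chosen with the difference between the groups known, so their group differences, and whether a fit over all probes calls them, are given as a description and support nothing.

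RNA came from whole testis of male Sprague-Dawley rats aged 11 weeks, with 1 testis of each of 3 rats per group. Control rats received corn oil by gavage for 28 days. DEHP rats received di(2-ethylhexyl) phthalate, a plasticizer, at 1000 mg/kg/day for 28 days, dissolved in corn oil, so that the vehicle was common to both groups. The design text of the series names the treatments in the opposite order to the groups, and every direction below rests on the labels of the samples.

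Each of the 4 proteins handles a different class of small molecule. Enpp1 is a membrane ectoenzyme that splits extracellular ATP into AMP and pyrophosphate, an inhibitor of mineral deposition. Slc28a2 is a sodium-dependent transporter that concentrates purine nucleosides and uridine in cells. Napepld is a phospholipase D that releases N-acylethanolamines, among them the endocannabinoid anandamide, from membrane phospholipids. Cyp2e1 is a cytochrome P450 that oxidises ethanol, acetone and other small solvents and is best known from the liver. Phthalate monoesters formed from DEHP activate PPAR-alpha, a nuclear receptor that pairs with RXR on direct repeats of the half-site AGGTCA.

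The start regions of 3 of the 4 genes are shown because they set Napepld, which was higher in DEHP testis, beside both genes whose groups overlapped. The windows come from RefSeq (GRCr8), run on the plus strand from 250 bases before the transcript start that the table uses to 50 bases after it, and carry in capitals every match on either strand to the TATA box letters TATAAA, the GC box letters GGGCGG, the half-site AGGTCA or its direct repeat AGGTCANAGGTCA, which contains the half-site. For Slc28a2 and Napepld that start lies inside the annotated span of the gene, not at its first base. Enpp1, also higher in DEHP testis, has no entry in the table used, so no contrast of start regions by direction is drawn.
Napepld (chr4:14253010-14253309): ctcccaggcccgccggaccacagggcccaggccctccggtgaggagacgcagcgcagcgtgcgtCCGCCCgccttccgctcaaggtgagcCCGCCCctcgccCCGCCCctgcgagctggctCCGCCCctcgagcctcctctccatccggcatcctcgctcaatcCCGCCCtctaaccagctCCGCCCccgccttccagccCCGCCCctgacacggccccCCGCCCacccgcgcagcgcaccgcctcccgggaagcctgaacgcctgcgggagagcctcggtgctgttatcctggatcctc
Cyp2e1 (chr1:205269717-205270016): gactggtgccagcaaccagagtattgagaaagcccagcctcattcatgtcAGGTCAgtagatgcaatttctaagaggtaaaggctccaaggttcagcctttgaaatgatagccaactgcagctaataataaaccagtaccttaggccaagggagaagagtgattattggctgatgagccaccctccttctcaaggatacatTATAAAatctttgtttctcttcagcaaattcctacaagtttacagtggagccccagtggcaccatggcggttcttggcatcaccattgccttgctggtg
Slc28a2 (chr3:129819538-129819837): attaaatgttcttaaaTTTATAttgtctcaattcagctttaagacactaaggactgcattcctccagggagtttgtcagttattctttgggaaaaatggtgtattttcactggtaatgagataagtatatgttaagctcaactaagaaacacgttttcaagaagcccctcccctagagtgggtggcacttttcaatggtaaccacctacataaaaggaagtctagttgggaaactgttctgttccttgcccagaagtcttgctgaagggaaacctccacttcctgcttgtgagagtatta

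The Napepld window was 74.7% G and C, with 32 CG dinucleotides, and held 8 matches to GGGCGG, all on the minus strand. GGGCGG occurred at least once in 33.1% of 33469 windows of this length, whose medians were 51.7% G and C and 7 CG dinucleotides. That share counts windows with any match and is not matched for G and C content, so it gives no scale for 8 matches. The Cyp2e1 and Slc28a2 windows had 1 CG dinucleotide each. The Cyp2e1 window, at 46% G and C, had TATAAA beginning 49 bases before the start and AGGTCA beginning 200 bases before it. The Slc28a2 window, at 39.3% G and C, held 1 TATAAA on the minus strand and no match to the other motifs. TATAAA was present in 14.2% of all windows and AGGTCA in 16.2%. The direct repeat was found in none of these 3 windows and in 18 of the 33469. These matches describe letters only and say nothing of binding.

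Each of the 4 probes was detected well above background on every one of the 6 arrays, and none of their spots was saturated. Each was printed as 10 spots, of which 7 to 10 per array remained after outlier spots were left out. Mean signals per array ran from 24.3 for Cyp2e1 to 403 for Napepld, against medians of 2.81 to 4.52 in the negative control spots. Values below are log2 signals averaged over the spots of a probe, relative to the 75th percentile of all probes on the array. The level of one probe is not comparable with that of another.

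Napepld and Enpp1 were higher on every DEHP array than on any control array, by a little under 1 log2 unit in the mean. Cyp2e1 overlapped between the groups, and Slc28a2 was set apart by 1 control array. The fit of all 23090 probes that passed the filter on dim signals (limma, Benjamini-Hochberg, adjusted p below 0.05) had 2 of the 4 genes, Napepld and Enpp1, among its calls, which is no test of genes chosen from this comparison. Over all tested probes 4.44% were called higher and 6.26% lower. The groups did not overlap for these 2 genes, nor in 37.5% of all tested probes. Nothing is read from the share of the 4 genes.

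**Figure D1:**
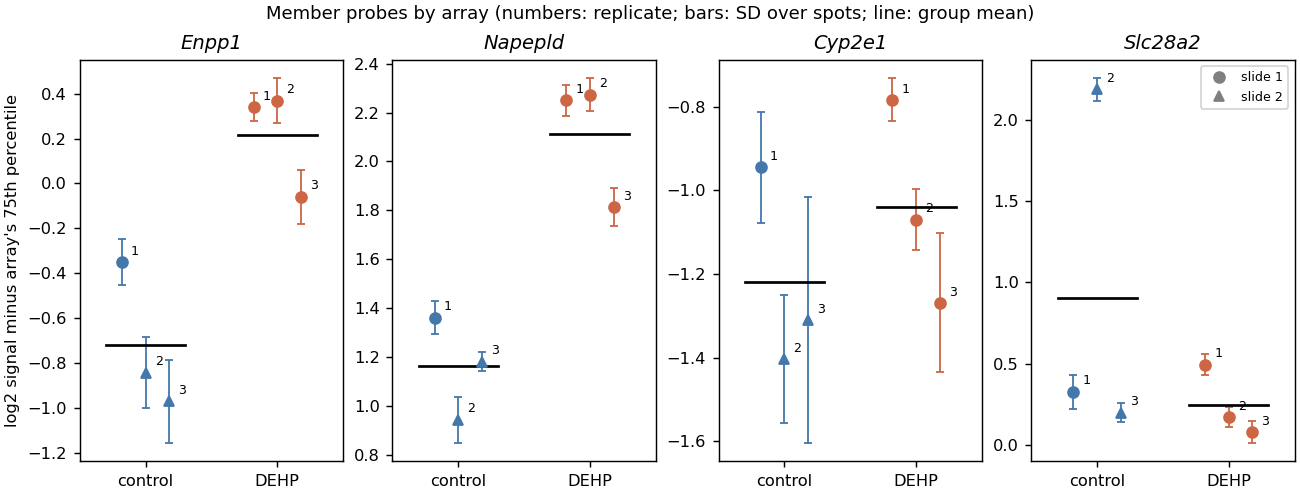
Signal of each probe on each array, as log2 minus the array's 75th percentile, in 3 control (blue) and 3 DEHP (orange) testes; each panel has its own vertical scale, points carry the replicate number, bars are the SD over the spots of the probe, lines are group means, and triangles mark the 2 arrays of slide 2. The groups lie apart for Enpp1 and Napepld, overlap for Cyp2e1, and control 2 stands alone for Slc28a2.

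Napepld, the enzyme of N-acylethanolamine release, read 1.36, 0.94 and 1.18 in controls 1 to 3. In DEHP 1 to 3 it read 2.25, 2.27 and 1.81. The lowest DEHP array lay 0.45 above the highest control. The control mean was 1.16 ± 0.21 and the DEHP mean 2.11 ± 0.26 (SD, n = 3), so that the groups differed by 0.95 with a standard error of 0.17, or 1.93-fold. Before any centring, the probe gave 144 ± 13.6 units of signal in the control group and 335 ± 68.9 in the DEHP group (SD, n = 3). Spots of the probe agreed closely, with a mean SD of 0.07 within an array against 0.24 between rats of a group.

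Enpp1, the source of extracellular pyrophosphate, read -0.35, -0.84 and -0.97 in controls 1 to 3. In DEHP 1 to 3 it read 0.34, 0.37 and -0.06. The groups did not overlap, but the gap between control 1 and DEHP 3 was only 0.29. The means were -0.72 ± 0.33 and 0.22 ± 0.24 (SD, n = 3), a difference of 0.94 with a standard error of 0.19, or 1.92-fold. All DEHP values lay above all control values in 20.6% of the 23090 tested probes. This probe was dim, with 30.4 to 46.3 units of signal in controls and 72.6 to 108 in DEHP testis. Its difference was 0.47 under background correction by normexp with an offset of 50 and 75th percentile centring, which compresses dim signals, against 0.81 for Napepld.

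Control 1 was the control nearest to DEHP testis for Enpp1 and for Napepld. That array had the fewest probes well above background, 16802 against 21395 to 23866 on the others. Going by a scan identifier that the headers carry, taken here to mark a slide, control 1 shared slide 1 with the 3 DEHP arrays and controls 2 and 3 lay on slide 2. Within slide 1 the difference was 0.57 for Enpp1 and 0.75 for Napepld. Against the slide 2 controls it was 1.12 and 1.05. Neither gene was among the 7 probes that limma called with the slide as a block, nor among the 2037 called within slide 1 alone, a fit that takes the spread of its single control from the DEHP arrays, against 2471 over all 6 arrays. The part of the slide in these differences was not tested. Nor was either among the calls without control 3, DEHP 1 or DEHP 2, where the differences were 0.81, 0.88 and 0.86 for Enpp1 and 0.96, 0.88 and 0.87 for Napepld. Those fits called only 544, 478 and 275 of all 23090 tested probes. Both genes stayed among the calls without control 1, control 2 or DEHP 3, where 2578, 4514 and 676 probes were called.

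Cyp2e1, the solvent-oxidising P450, read -0.94, -1.40 and -1.31 in controls 1 to 3 and -0.78, -1.07 and -1.27 in DEHP 1 to 3. Control 1 was the second highest of the 6 arrays, and DEHP 3 lay between controls 1 and 3. The means were -1.22 ± 0.24 and -1.04 ± 0.24 (SD, n = 3). The difference of 0.18 had a standard error of the same size, 0.18, and Cyp2e1 was not called. Its sign turned within slide 1, to -0.10, and with median centring, to -0.03. The SD over its spots reached 0.29 in control 3, where its mean signal was 24.3 and the standard error over the spots was 0.09, against an SD of 0.24 between rats of a group.

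Slc28a2, the purine nucleoside transporter, read 0.33, 2.19 and 0.20 in controls 1 to 3 and 0.49, 0.17 and 0.08 in DEHP 1 to 3. Control 2 lay 1.70 above the next array, a 3.25-fold step, while the other 5 arrays spanned 0.41. All 10 spots of control 2 were well above background, and their SD was 0.07, so the high reading was shared by the whole set of spots. The means were 0.90 ± 1.12 and 0.25 ± 0.22 (SD, n = 3), a difference of -0.66 with a standard error of 0.44, which was not called. Without control 2 the difference was -0.01 with a standard error of 0.16. Without control 3 it was -1.01, and within slide 1, which does not hold control 2, it was -0.08. Of the 23090 tested probes 53 (0.230%) had 1 array at least as far above the other 5, and control 2 was that array in 39 of them. Slc28a2 was the only one of the 53 named by an mRNA accession, but few of the 23090 tested probes are so named, the 4 genes and 52 others.

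Whole testis was measured, so that more RNA per cell and more cells of a type cannot be told apart for any of these genes. Of the testis marker lists, the Leydig cell list had a probe for 1 of its 6 genes, Lhcgr, the luteinizing hormone receptor, and the Sertoli, germ cell, peritubular, endothelial, macrophage and blood lists had none. Lhcgr differed by 0.55 with a standard error of 0.18 and was not called (limma, adjusted p = 0.0784). Its groups overlapped, with the highest control at -0.28 and the lowest DEHP array at -0.35. It moved in the direction of Enpp1 and Napepld. So did all 21 other mRNA probes of the manufacturer's catalogue, Lhcgr among them, which are described below. The part of Lhcgr in the differences of Enpp1 and Napepld was not tested.

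Other genes of the same pathways were few on the array. The nucleotide list had probes for 3 of 24 genes, Enpp1, Slc28a2 and the purine salvage enzyme Hprt1. The 3 Hprt1 probes were too dim to be detected on any array, control or DEHP, and did not pass the filter. The acylethanolamide and endocannabinoid list had 1 of 12 genes, Napepld itself. The xenobiotic list had 2 of 20 genes, Cyp2e1 and Gusb, a lysosomal enzyme that removes glucuronic acid. Gusb differed by -0.65 on the probe that was called lower and by -0.26 on another (adjusted p = 0.319), and its remaining probe did not pass the filter. None of the 12 PPAR target genes had a probe, so a response of that kind was not read here.

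The 4 genes are read by probes with names of the manufacturer's catalogue, and these differed from the rest of the array. The 21 other catalogue probes with an mRNA accession had a median difference of 0.74, with 14 called higher and every difference above 0, against a median of 0.05 over all tested probes. Of these, Cdh2 (1.23) and Fgf2 (0.76) were detected on 0 control and 3 DEHP arrays, so that they passed the filter only through the group where they were high. The 17 detected on all 6 arrays also had a median of 0.74, with 12 called higher. Separation of the groups was common among the 21 as well. Every DEHP array lay above every control for all of them except Dlg4, Lhcgr, Map2 and Ptk2b. The 31 custom mRNA probes had a median of 0.27. Of the 21, 2 had a larger difference than Napepld and than Enpp1, Cdh2 and, at 0.98, Pdcd10. Cyp2e1 was exceeded by 19 of the 21, and Slc28a2 by all 21. The median of the 21 on each array was 1.83, 1.66 and 1.67 in controls 1 to 3 and 2.50, 2.45 and 2.20 in DEHP 1 to 3, with control 1 again the highest control and DEHP 3 the lowest treated array.

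With each array centred on these 21 probes, the difference was 0.28 for Napepld and 0.27 for Enpp1, and neither was called by limma. On that scale Cyp2e1 differed by -0.49 and Slc28a2 by -1.32, and both were among the calls. Control 2 again stood far above the other arrays for Slc28a2, which read -1.50, 0.53 and -1.47 in controls 1 to 3. In DEHP 1 to 3 it read -2.01, -2.29 and -2.12. Under this centring the median difference of all probes was -0.61. Of the 23090 tested probes 13922 were called, 0.287% of these higher, so the scale moves nearly every probe down. The direction of Cyp2e1 and which genes were called thus depend on the set of probes taken as reference, which was chosen after the data were seen.

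**Figure D2:**
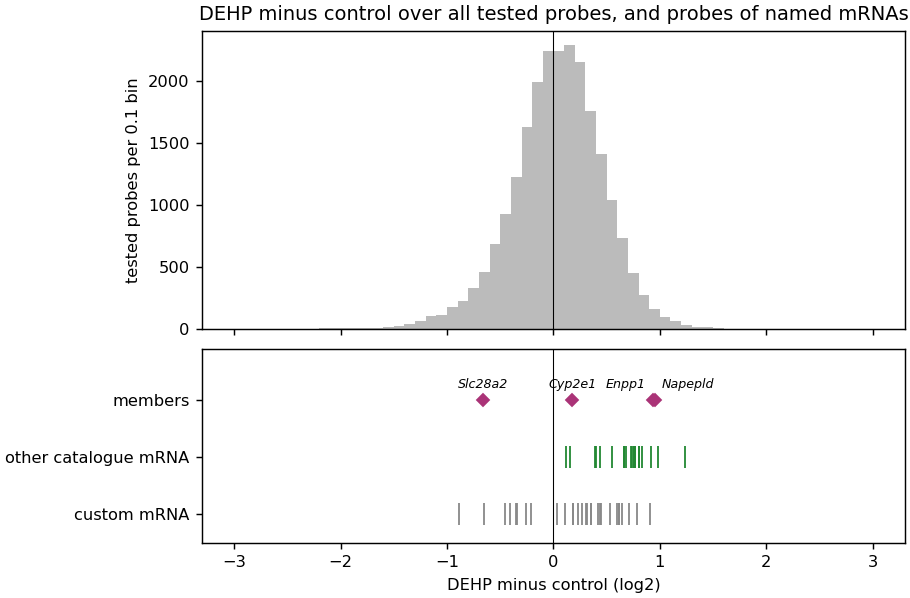
Top, number of tested probes by difference between DEHP and control (log2, bins of 0.1). Bottom, the 4 genes (diamonds), the 21 other catalogue mRNA probes (green) and the custom mRNA probes with a gene symbol (grey) on the same axis. Enpp1 at 0.94 and Napepld at 0.95 lie near the upper end of the catalogue probes, Cyp2e1 at 0.18 near their lower end and Slc28a2 at -0.66 below all of them.

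Likeness between profiles was measured as the root-mean-square distance over the 6 arrays between log2 values centred on each probe's own mean. The arrays of both groups enter it, so it includes the group difference that was known when the genes were chosen. Probes with nearly equal group differences tend to lie close for that reason alone. The distances are therefore a description and no separate finding that genes vary together. Napepld and Enpp1 were 0.14 apart, and each was 0.40 from Cyp2e1. Slc28a2 was 0.85 from Cyp2e1 and over 1 from both others. Among 50 tested probes of other named genes, those nearest to Napepld were the catalogue probe of the lactate dehydrogenase gene Ldha at 0.09, the ubiquitin ligase adaptor Ndfip1 at 0.12 and the pyruvate dehydrogenase kinase Pdk3 at 0.12, against a median of 0.31. The Ldha probe was higher by 0.91, but the custom Ldha probes differed from it, with -0.89 on 1 that was called lower (adjusted p = 0.0268) and 0.31 and 0.19 on both others, which were not called. Nearest to Enpp1 were a probe of the succinate dehydrogenase subunit Sdha at 0.04, Pdcd10, a gene of vessel integrity, at 0.05 and the same Ldha probe at 0.10. That Sdha probe was detected on no control array and passed the filter only through the DEHP arrays, so its control values were not well above background and its likeness is given only because the rule names it. The other Sdha probes moved the opposite way, by -0.35 and -0.34, and were not called (adjusted p = 0.122 and 0.0982). Nearest to Cyp2e1 were 1 custom probe each of Gapdh at 0.11, Ldha at 0.12 and Pgk1 at 0.15. Other probes of these genes differed from those, with 0.65 and 0.62 for Gapdh, both called higher, and -0.46 and -0.21 for Pgk1, neither called. The probes nearest to Slc28a2 were farther off, with 1 each of the ribosomal protein gene Rplp1 at 0.63, Pgk1 at 0.64 and Gusb at 0.66. That Rplp1 probe differed by -0.41 and was not called. Its other probes moved the opposite way, by 0.44, not called, and by 0.60, called higher.

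**Figure D3:**
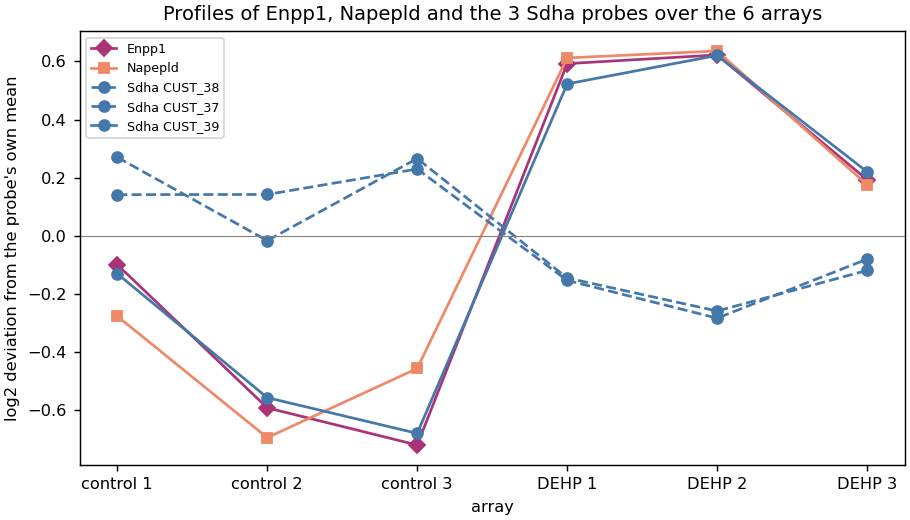
Log2 deviation of Enpp1, Napepld and the 3 Sdha probes from each probe's own mean on the 6 arrays; lines join values of a probe and imply no order of arrays. Enpp1 and Napepld have control 1 as the highest control and DEHP 3 as the lowest DEHP array; the Sdha probe that follows them was detected on no control array, and the other Sdha probes (dashed) run the opposite way.

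**Figure D4:**
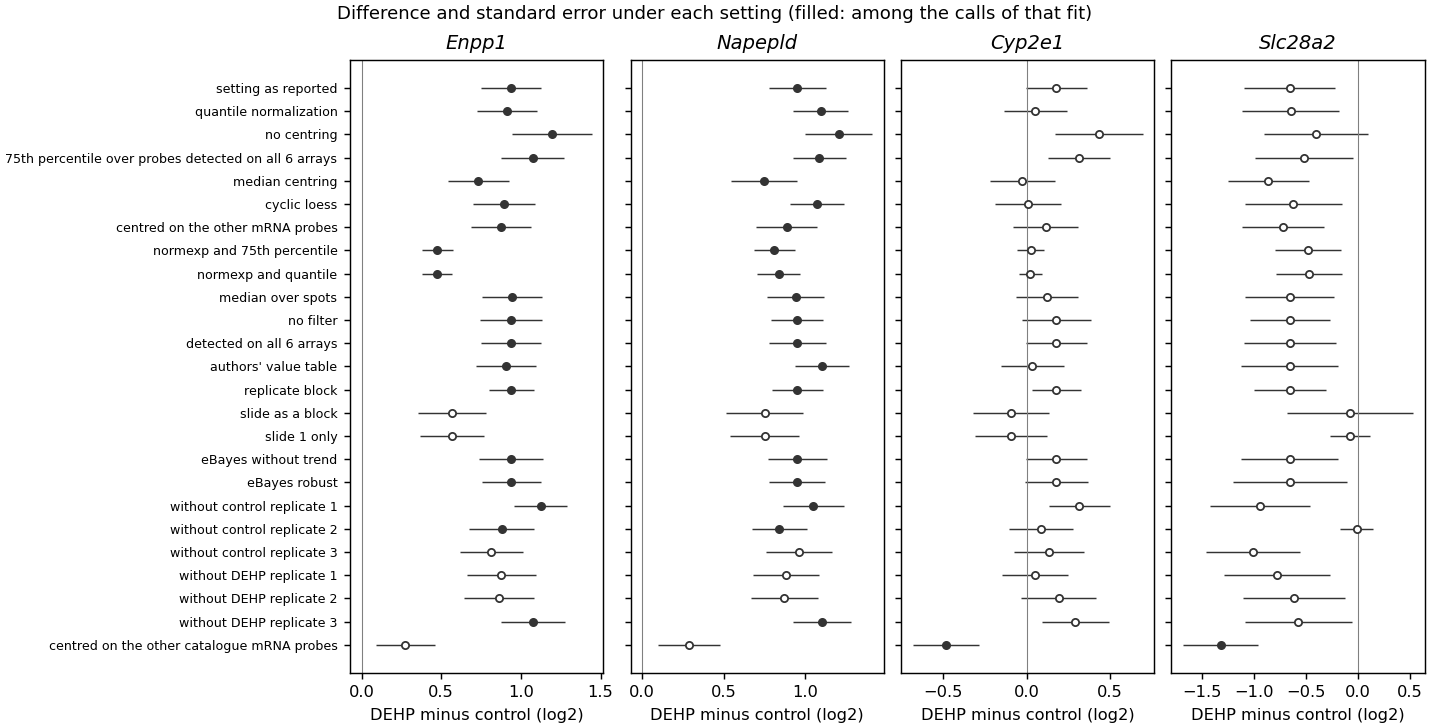
Difference between DEHP and control (log2, point) with its standard error (bar) for each gene under every setting; filled points are among the calls of that fit. Enpp1 and Napepld are above 0 under every setting, and Slc28a2 moves from -0.66 to -0.01 when control 2 is left out.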

How the data were processed

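RNA of the 6 testes was turned into Cy3-labelled cRNA, per the labels' protocols, hybridised to one-colour arrays, and read with Agilent Feature Extraction 11.0.1.1, per the file headers. Each deposited scanner file gives, per spot, a background-subtracted processed intensity, median spot and background intensities, and quality flags (other values, either 0 or 1). The authors' table of deposited log2 values, of unstated method, was used as an alternative only.

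Here, outlier spots were dropped, the log2 processed signal of a probe was the mean of its spots, and the 75th percentile over 39886 probes was subtracted on each array. A probe counted as well above background if over 50% of its spots were. The 23090 probes so detected on at least 3 of 6 arrays, with a value on each, were kept. The comparison used limma 3.58.1 (R 4.3.3, eBayes with trend, Benjamini-Hochberg over all kept probes, threshold 0.05) and was tested on simulated data. Adjusted p-values are limma's and two-sided. The number of arrays limits the precision. Gene symbols came through RefSeq accessions from a GRCr8 table, which matched 61 of 67 mRNA probes to 38 genes. Besides the 4 genes, those named were listed genes with a probe and the 3 nearest profiles of each. Normexp used median spot signals. Alternatives covered normalization, background, filter, slide, variance model, replicate block and each array left out. Rats with equal replicate numbers were not treated as pairs. Their deviations from group means correlated at 0.13, 0.46 and 0.08, which cannot settle whether they were. Members and lists were chosen with earlier results of these data known. Plots used matplotlib 3.10.9 in Python 3.11.15.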

Additional observations from a re-analysis of the deposited data

How the results depend on the processing

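The 4 differences were recomputed under 24 alternatives, 1 of them (centring on other catalogue probes) added after the data were seen. Enpp1 and Napepld were above 0 and Slc28a2 below 0 in all of them. Enpp1 went from 0.94 to 0.47 with normexp (either centring), to 0.57 with the slide as a block or within slide 1, and to 0.27 on the catalogue probes. Napepld had 1.20 without centring and 0.28 on the catalogue probes. Cyp2e1 had 0.43 without centring, -0.10 in both slide settings and -0.49 on the catalogue probes. The cause was not tested. Of the 4 genes, limma called 0 higher in both slide settings (2 at an unadjusted p below 0.05) and 0 on the catalogue probes (0 unadjusted), where 2 were called lower. Leaving out 1 array gave 0 to 2 called higher, with 0 without control 3, DEHP 1 or DEHP 2 (2 at an unadjusted p below 0.05 each time). Counts of the 4 genes, adjusted or not, test nothing, because the genes were chosen with this comparison known. Over all probes 2471 calls became 568 without centring, 1598 with normexp and percentile centring, 7 with the slide as a block (4091 at an unadjusted p below 0.05), 13922 on the catalogue probes and 275 to 4514 with 1 array left out. Calls higher in DEHP were 41.5% of all, 68.6% with the percentile taken from probes seen on all 6 arrays and 9.50% with median centring. With the replicate block 4465 probes were called, Enpp1 and Napepld among them. By deviations from group means, 2 of 3 controls correlated best with the DEHP array of their own number. That does not settle whether the numbers mark pairs.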

Other observations

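Outside the fixed lists, 2 further genes of related function had a tested catalogue probe and are named here after their values were seen. P2rx2, an ion channel opened by extracellular ATP, the substrate of Enpp1, was higher by 0.66, standard error 0.16 (adjusted p = 0.0328 by limma). Nat1, an arylamine N-acetyltransferase of xenobiotic metabolism, differed by 0.43 with a standard error of 0.16 and was not called (adjusted p = 0.107). Both lie below the median of 0.74 of the other catalogue mRNA probes.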
